A study of Homo sapiens with 2 samples.

Results

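The miR-130, miR-301 and miR-454 family was followed in BEAS-2B, a line of human bronchial epithelium that was immortalised with viral genes, 24 h after vehicle or manganese was added. Its members were all entries of the deposited count table named hsa-miR-130a, hsa-miR-130b, hsa-miR-301a, hsa-miR-301b or hsa-miR-454 with either arm (hsa, for Homo sapiens, is left off from here on), which gave 10 of 2904 entries, the 3p and 5p arms of 5 hairpins. Each of the 2 groups, wild-type cells with vehicle (control) and wild-type cells with manganese, held 1 library, with 1064179 counts in the control and 1091070 with manganese. Both groups grew in a serum-supplemented mixture of DMEM and F-12 medium, and none of the sources used here states the manganese dose. With 1 library per group no difference has a replicate check, no p-value is given, and each interval covers counting error only.

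MicroRNAs are short RNAs that are cut as a pair of arms (5p and 3p) from a hairpin, and usually 1 arm, the guide, is kept in an Argonaute protein while the other, the passenger, is degraded. The guide finds target mRNAs mainly through its seed, bases 2 to 8 from its 5′ end. In this family the guides are the 3p arms, which share a seed, so that the members can act on overlapping sets of targets. The family is known for targeting PPARG and components of TGF-beta signalling, and for its part in vascular remodelling in the lung, and it is often higher in tumours of epithelial origin.

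Mature sequences of 8 of the 10 members were taken from RefSeq (GRCh38.p14) and are shown because the seed defines the family while the remaining bases tell its members apart. Capitals mark the seed. The 4 guides with a sequence in that table carry the seed AGUGCAA.
miR-301a-3p: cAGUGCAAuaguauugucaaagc
miR-301b-3p: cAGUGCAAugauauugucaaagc
miR-130b-3p: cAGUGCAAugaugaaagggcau
miR-454-3p: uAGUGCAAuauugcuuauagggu
The passenger arms, shown with bases 2 to 8 in capitals, have 4 different seeds among the 4 sequences.
miR-130a-5p: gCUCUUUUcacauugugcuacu
miR-130b-5p: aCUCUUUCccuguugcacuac
miR-301a-5p: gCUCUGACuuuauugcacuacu
miR-454-5p: aCCCUAUCaauauugucucugc
The sequences of miR-130a-3p and miR-301b-5p are not shown. Counted from 1 at the 5′ end, miR-301a-3p and miR-301b-3p were identical at 21 of 23 positions and differed by A10G and G11A, the base of miR-301a-3p first. Whether reads of miR-301a-3p and miR-301b-3p were counted for each other was not tested. The other pairs of these guides were identical at 10 to 13 of the 22 or 23 positions compared without gaps. The reverse complement of the family seed, UUGCACU, which would pair with it, was found in the sense strand of 8 of 2370 mature human miRNAs (0.338%), among them miR-130b-5p and miR-301a-5p, whose hairpins pair these bases with the guide. In the same table miR-3666 and miR-4295 carry the family seed outside the 5 hairpins, and both were listed at 0 counts in both libraries, which allows up to 3 counts, or 2.76 CPM (counts per 1000000, defined below) for the control and 2.80 for the manganese library.

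The 5 hairpins lie at 3 loci of GRCh38 (GENCODE annotation). On the minus strand of chromosome 17, MIR301A (59151136 to 59151221) and MIR454 (59137758 to 59137872) are both in introns of SKA2, a gene for a kinetochore protein, with 13263 bases between them. On the plus strand of chromosome 22, MIR301B (21652981 to 21653058) and MIR130B (21653304 to 21653385) are 245 bases apart in the same non-coding gene, MIR301B in an intron and MIR130B in an exon. MIR130A (57641198 to 57641286) is on the plus strand of chromosome 11, in an intron of a non-coding gene.

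The libraries differed in markers of other cell types, and these values stand beside every result that follows. Levels are counts per 1000000 (CPM) of the library size scaled by TMM. This method gives each library 1 factor, on the assumption that most entries do not differ. The 6 erythroid markers, led by miR-486-5p, summed to 8898 CPM (control) and 165024 CPM (manganese). Of these, 4 were measured (at least 20 counts over both libraries), and 4 of 4 passed the rule for higher entries given below. Of all 403 measured entries 12.9% passed it, a share that stands beside each marker list here. In the control miR-144-3p, miR-144-5p and miR-4732-5p were at 0 counts, the last of them called higher. The 4 leukocyte markers summed to 11.98 and 126 CPM, with 3 of 3 measured higher. The 5 placental markers of 19q13 summed to 51.6 and 480 CPM, with 5 of 5 measured higher. The 5 mesenchymal markers summed to 48.8 and 404 CPM, with 2 of 2 measured higher and miR-199a-5p and miR-214-3p at 0 in both libraries. The 2 endothelial and platelet markers summed to 27.6 and 43.9 CPM, with 1 of 1 measured higher. Of these last, miR-126-3p had 19 control and 39 manganese counts, and miR-126-5p had 11 and 8. The interval of their summed fold (0.984 to 2.60) contained 1-fold. The 6 epithelial markers, which check the label of the line, summed to 103 and 209 CPM, a fold of 2.03 (1.61 to 2.57). Of these, 2 of 3 measured were higher. The 3 measured ones (miR-200a-3p, miR-200b-3p and miR-429) had between 29 and 45 control counts and between 60 and 74 manganese counts. The other epithelial markers, miR-200c-3p, miR-141-3p and miR-205-5p, had 3, 0 and 3 counts in the control and 7, 2 and 11 with manganese, so they were near or under the floor of 3 counts in the control. The part of these cell types in the family's values was not tested.

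The family as a whole took nearly the same small portion of both libraries, while its members went apart. The 10 entries summed to 3867 control and 3679 manganese counts, or 3563 and 3439 CPM, a fold of 0.965 (95% interval 0.922 to 1.01), manganese over control. The family took 0.363% of all control counts (exact binomial 95% interval 0.352 to 0.375) and 0.337% of all manganese counts (0.326 to 0.348). These 2 counting intervals did not overlap. With the erythroid list left out of the totals, an alternative added after the data were seen, the shares were 0.367% and 0.402%, so the order of the libraries turned with the denominator. In such bulk libraries fewer cells that make a miRNA and less of it per cell cannot be told apart.

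Of the 10 entries, 8 had at least 20 counts over both libraries and were called measured, miR-301a-5p had fewer, and miR-301b-5p had none. An entry was called higher or lower when its fold was at least 2 in that direction with an interval that excluded 1-fold. None of the 8 members was higher, where 12.9% of all 403 measured entries were, and 1 was lower, miR-130a-5p, where 6.45% of all entries were. At a fold of 1.5 the family counts were 0 higher and 2 lower (miR-130a-5p and miR-454-5p), against 15.9% and 14.1% of all entries. Intervals excluded 1-fold, at any size, for 1 member on the higher side and 5 on the lower side, against 21.3% and 28.5% of all entries, and they are narrow because they hold no variation between cultures. The median log2 fold of the 8 members was −0.33, that of all measured entries −0.08.

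**Figure D1:**
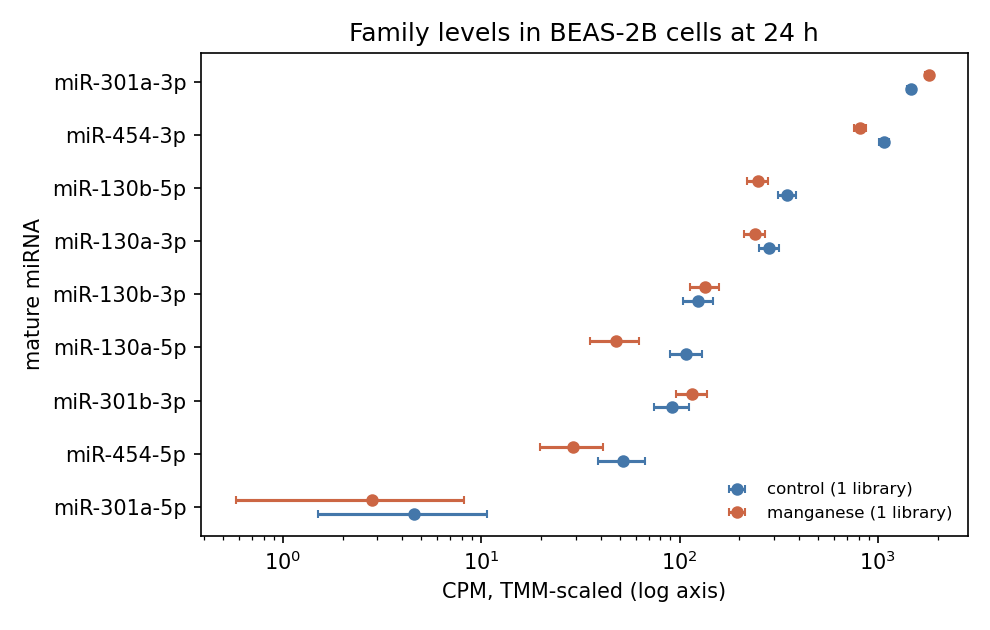
TMM-scaled CPM on a log axis of the 9 family entries with counts, in the control (blue) and manganese (orange) libraries, 1 library each, with exact Poisson 95% intervals as bars. The guide miR-301a-3p stands at the top in both libraries (1472 and 1808 CPM), followed by miR-454-3p (1079 and 814 CPM).

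The most abundant member was miR-301a-3p, a guide that is known to raise NF-kB activity in cancer cells. The control library held 1598 counts of it and the manganese library 1934, or 1472 and 1808 CPM, and its rank among all entries of its library was 49 and 43. Its fold was 1.23 (1.15 to 1.31), and 69.0% of measured entries had a lower fold. It was the only measured member whose interval lay wholly above 1-fold, and relative to the median of all measured entries its fold was 1.30.

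The next guide, miR-454-3p, whose hairpin also lies in an intron of SKA2, went the other way. Its counts were 1171 without and 871 with manganese, or 1079 and 814 CPM. Its fold was 0.755 (0.690 to 0.824), with an interval wholly below 1-fold but short of the 2-fold rule. These 2 guides held most of the family's counts. The total set a larger miR-301a-3p against a smaller miR-454-3p and smaller 5p arms, with 556 control and 351 manganese counts. Without miR-301a-3p, the summed fold of the 9 other entries, both arms included, was 0.780 (0.733 to 0.831).

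The remaining guides were rarer by several-fold. For miR-130a-3p, known for a role in blood vessel growth and in megakaryocyte and other blood lineages, the counts were 308 and 256 (284 and 239 CPM), a fold of 0.843 (0.712 to 0.999) whose interval barely excluded 1-fold. For miR-130b-3p, often raised in liver and other tumours, they were 135 and 144 (124 and 135 CPM), a fold of 1.08 (0.850 to 1.38). For miR-301b-3p they were 99 and 123 (91.2 and 115 CPM), a fold of 1.26 (0.959 to 1.66). The intervals of miR-130b-3p and miR-301b-3p contained 1-fold, so a difference was not detectable at this depth. All 5 guides lay within 1.5-fold of equality, as did 59.3% of all measured entries.

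The 3 measured passenger arms all had folds below 1. Counts of miR-130a-5p were 117 without and 51 with manganese, or 108 and 47.7 CPM. It was lower by the rule, 2.26-fold (1.61 to 3.21), and 4.47% of measured entries had a lower fold. The call rested on the scaling: with the 5 most abundant entries left out of the library totals its fold was 0.503, just short of the rule. Counts of miR-454-5p were 56 and 31 (51.6 and 28.98 CPM), a fold of 0.562 (0.350 to 0.886). Those of miR-130b-5p were 378 and 266 (348 and 249 CPM), a fold of 0.714 (0.608 to 0.837). For the rarer miR-301a-5p they were 5 and 3, with a fold of 0.609 and an interval from 0.0945 to 3.13, and miR-301b-5p was at 0 in both.

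**Figure D2:**
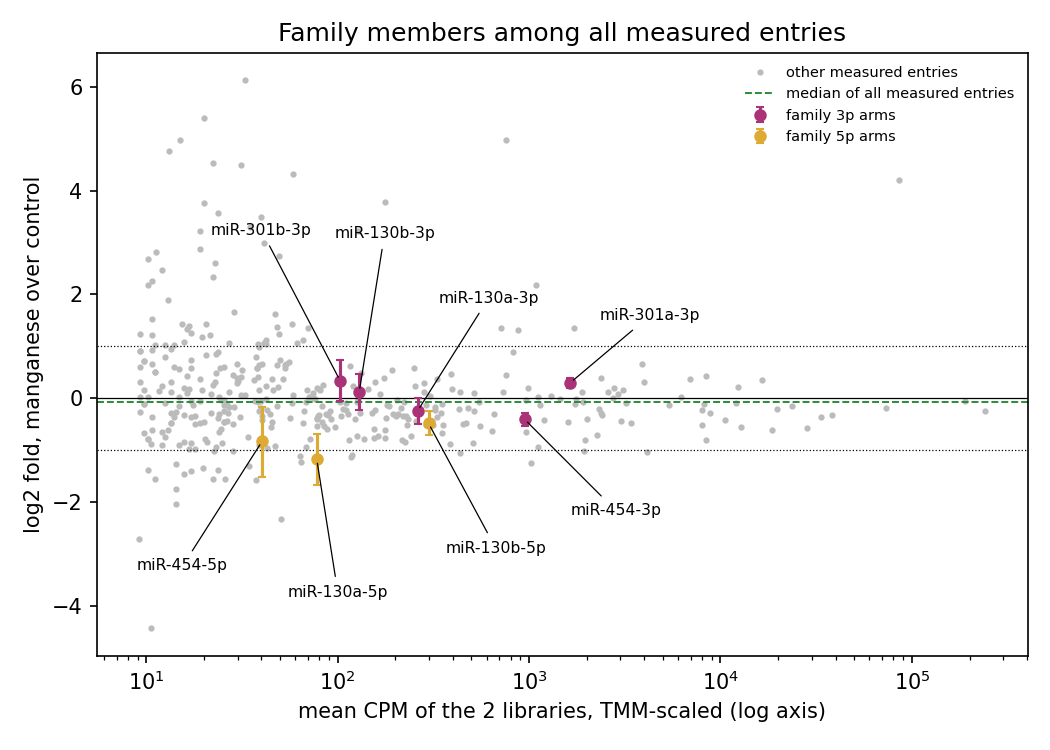
Log2 fold, manganese over control, against the mean TMM-scaled CPM of the 2 libraries (log axis) for all 403 measured entries, with the 5 guides (3p, purple) and 3 passengers (5p, yellow) of the family and their 95% counting intervals as bars. Entries with a count of 0 are drawn with that count set to 3, the dotted lines mark a 2-fold difference, and only miR-130a-5p among the family lies beyond them.

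Summed by arm, the guides came to 3311 control and 3328 manganese counts, a fold of 1.02 (0.972 to 1.07) that turned to 0.980 when libraries were scaled by total counts. The passengers, meaning here the 5p arms whatever their counts, had 556 and 351 counts, a fold of 0.640 (0.559 to 0.733). Most of these counts, 68.0% in the control and 75.8% with manganese, were of miR-130b-5p, which outnumbered its guide. The median log2 fold was 0.11 over the 5 guides and −0.83 over the 3 measured passengers. Over all measured entries it was −0.18 for 160 3p arms and −0.11 for 169 5p arms, and in the 83 hairpins with both arms measured it was −0.24 for the minor and −0.22 for the major arms. In the family miR-130a-5p and miR-454-5p are minor arms, and miR-130b-5p is the major arm of its hairpin.

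The share of the 3p arm within a hairpin does not depend on library scaling, and it was higher with manganese in the 3 family hairpins with both arms measured. In miR-130a the 3p arm made up 72.5% (68.0 to 76.7) of the hairpin's counts in the control and 83.4% (78.7 to 87.4) with manganese, and the odds of 3p against 5p were 1.91-fold higher (exact conditional interval 1.30 to 2.82). In miR-130b, the only family hairpin in which the passenger outnumbered the guide, the 3p share was 26.3% (22.6 to 30.4) and 35.1% (30.5 to 39.96), with odds 1.52-fold higher (1.13 to 2.03). In miR-454 it was 95.4% (94.1 to 96.5) and 96.6% (95.2 to 97.7), and the interval of the odds (1.34, 0.843 to 2.18) contained 1. The intervals of the odds excluded 1 on the higher side in 2 of these 3 hairpins, against 21.7% of the 83 hairpins with both arms measured, where 20.5% excluded it on the lower side. Of all 83 hairpins, 45 (54.2%) had a higher 3p share with manganese, so this direction by itself was common. In miR-301a the 3p share was 99.7% (99.3 to 99.9) and 99.8% (99.5 to 99.97), and all counts of miR-301b were of the 3p arm in both libraries.

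**Figure D3:**
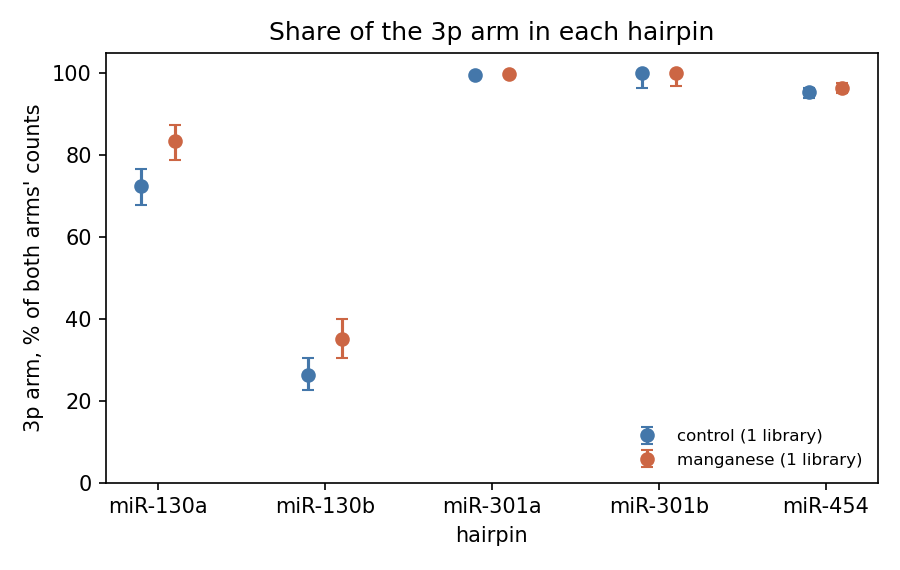
Percent of each family hairpin's counts that came from the 3p arm in the control (blue) and manganese (orange) libraries, 1 library each, with exact binomial 95% intervals as bars. The miR-130a and miR-130b points lie higher with manganese (72.5 to 83.4% and 26.3 to 35.1%), and the other hairpins stay above 95% 3p.

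The guides of the SKA2 hairpins changed their ratio to each other, while for those of chromosome 22 a change was not detectable at this depth. The count of miR-301a-3p was 1.36 times that of miR-454-3p in the control (1.26 to 1.47) and 2.22 times with manganese (2.05 to 2.41), a change in ratio of 1.63-fold (1.46 to 1.82) that needs no scaling. For the chromosome 22 guides, miR-130b-3p stood at 1.36 times miR-301b-3p in the control (1.04 to 1.79) and 1.17 times with manganese (0.914 to 1.502), a change of 0.859 whose interval (0.593 to 1.24) contained 1. The major arm of MIR130B, the passenger miR-130b-5p, stood at 3.82 times miR-301b-3p in the control (3.05 to 4.81) and 2.16 times with manganese (1.74 to 2.70), a change of 0.566 (0.411 to 0.780). How common such changes between major arms were depended on the counts of the pairs compared. Among 288 pairs of hairpins on the same strand within 50 kb, compared through their major arms, 58.7% changed less than the SKA2 pair and 68.4% less than miR-130b-5p with miR-301b-3p. Among the 53 such pairs in which both arms had at least 100 counts, 81.1% and 90.6% changed less. These pairs were compared after the members' values had been seen, and pairs of 1 cluster share members. Summed by locus, the folds were 1.02 (0.966 to 1.07) for the SKA2 hairpins, 0.884 (0.785 to 0.994) for those of chromosome 22 and 0.733 (0.631 to 0.851) for MIR130A.

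Within the pool of 3p arms, miR-301a-3p took a larger part with manganese. It made up 48.3% (46.5 to 49.98) of the guide counts without manganese and 58.1% (56.4 to 59.8) with it. The part of miR-454-3p was 35.4% (33.7 to 37.0) and 26.2% (24.7 to 27.7), and that of miR-130a-3p 9.30% (8.33 to 10.3) and 7.69% (6.81 to 8.65). The parts of miR-130b-3p were 4.08% and 4.33% and those of miR-301b-3p 2.99% and 3.70%. Intervals overlapped between the libraries for miR-130a-3p, miR-130b-3p and miR-301b-3p, but not for miR-301a-3p or miR-454-3p. Among the passengers miR-130b-5p held 68.0% without manganese (63.9 to 71.8) and 75.8% with it (71.0 to 80.2), and miR-130a-5p 21.0% (17.7 to 24.7) and 14.5% (11.01 to 18.7), with intervals that overlapped for both.

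**Figure D4:**
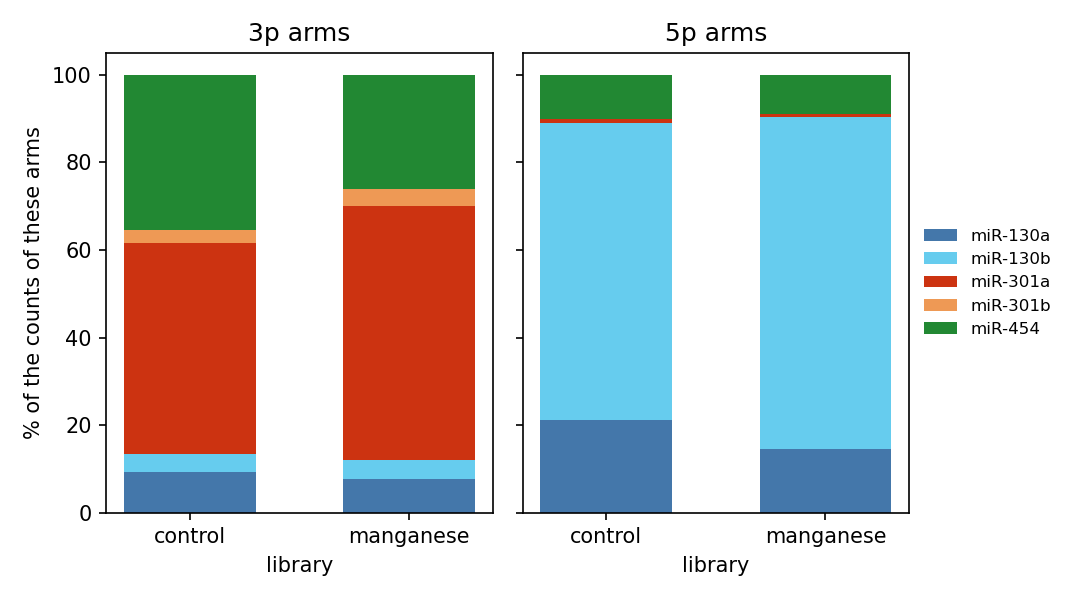
Percent of the summed counts of the 3p arms (left) and of the 5p arms (right) that each family hairpin gave, in the control and manganese libraries, 1 library each. The 3p pool holds 48.3% miR-301a in the control and 58.1% with manganese, and the 5p pool is mostly miR-130b (68.0% and 75.8%).

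The order of the members by CPM was close to the same in both libraries. All mature sequences in hand were 21 to 23 bases long, so counts were compared between members without a length correction, though capture in small RNA libraries also depends on sequence. In the control the order ran miR-301a-3p, miR-454-3p, miR-130b-5p, miR-130a-3p, miR-130b-3p, miR-130a-5p, miR-301b-3p, miR-454-5p and miR-301a-5p. Neighbouring intervals overlapped there for miR-130b-5p and miR-130a-3p, for miR-130b-3p and miR-130a-5p, and for miR-130a-5p and miR-301b-3p. With manganese miR-301b-3p (115 CPM) stood above miR-130a-5p (47.7 CPM), and the neighbouring intervals overlapped for miR-130b-5p and miR-130a-3p, for miR-130b-3p and miR-301b-3p, for miR-130a-5p and miR-454-5p.

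Among 393 other measured entries with counts in both libraries, those nearest to miR-301a-3p by distance between the log2 CPM of the 2 libraries were miR-151a-3p, miR-574-5p and miR-30b-5p, at 0.27, 0.31 and 0.31 log2 units. Their folds were 0.983 (0.921 to 1.05), 0.929 (0.871 to 0.991) and 0.995 (0.927 to 1.07), so they were close in level rather than in direction.

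A shift of the seed by 1 base gives the seeds of 2 further families, miR-148 with miR-152, and miR-19, shown here for comparison.
miR-148a-3p: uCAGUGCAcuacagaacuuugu
miR-19a-3p: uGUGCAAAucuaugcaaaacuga
The 6 arms of miR-148a, miR-148b and miR-152 summed to 1331 control and 1273 manganese counts. Their fold of 0.970 (0.898 to 1.05) was close to that of the miR-130, miR-301 and miR-454 family. By the rule 0 of 3 measured arms were higher and 0 lower, against 12.9% and 6.45% of all measured entries. Their main arm, miR-152-3p, had 1061 and 1022 counts. The 5 arms of miR-19a and miR-19b summed to 4370 and 2020 counts, a fold of 0.469 (0.445 to 0.494). Of these, 2 of 2 measured arms were lower, against 6.45% of all measured entries. The interval of the miR-19 sum does not meet that of the summed family (0.922 to 1.01), by counting error alone.

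MicroRNAs linked to the family through PPARG, a nuclear receptor that restrains inflammation and growth, were also examined. In vascular cells the family is known to act through PPARG on miR-204 and on miR-424 with miR-503, and miR-27a and miR-27b also target PPARG. Of these 10 arms 7 were measured, and 0 were higher and 0 lower by the rule, against 12.9% and 6.45% of all measured entries, with a median log2 fold of −0.28 against −0.08 for all measured entries. The most abundant were miR-27b-3p with 2903 and 2278 counts (a fold of 0.796, 0.753 to 0.841) and miR-27a-3p with 1003 and 1128 (1.14, 1.05 to 1.24). The counts of miR-424-5p were 415 and 336 (0.821, 0.709 to 0.951) and those of miR-503-5p 202 and 132 (0.663, 0.528 to 0.830). Among the 7 measured arms the lowest fold was that of the passenger miR-27b-5p, with 189 and 108 counts (0.580, 0.453 to 0.738). At a fold of 1.5 it and miR-503-5p were lower, 2 of 7 against 14.1% of all measured entries. The unmeasured miR-503-3p had 8 and 2 counts, a fold of 0.254 whose interval (0.0262 to 1.27) contained 1-fold. Both arms of miR-204 were listed at 0 counts in both libraries.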

How the data were processed

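Small RNA counts were analysed for 1 control and 1 manganese library. The authors deposited raw counts per mature miRNA entry, a unit read from the values (whole numbers with different totals). The authors' second deposited table holds a score per entry that was the manganese minus the control value in 2904 of 2904 entries (tolerance 0 counts), and it was not used further. The genome build named in the submitters' processing notes is hg38. The sources used here name no aligner, counter, miRNA annotation or filter.

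Libraries were scaled with TMM factors (1.02 control, 0.981 manganese) from edgeR 4.0.16 in R 4.3.3. Folds are ratios of scaled counts, manganese over control, with exact conditional binomial (Clopper-Pearson) 95% intervals from scipy 1.17.1 in Python 3.11.15. Odds of arms have exact conditional intervals, or a normal approximation for the 7 hairpins of at least 30000 counts, none of them in the family. Without molecular identifiers, intervals and floors cover counting error only. In medians over all entries 3 counts stood in for a count of 0. Measured entries had at least 20 counts over both libraries. The rule and intervals were tried on simulated Poisson counts with known folds and library totals. Such counts hold counting error only, so they cannot show how the intervals behave under variation between cultures. Alternatives were scaling by total counts, DESeq2 1.42.0 size factors or totals without the 5 most abundant entries, other filters and fold rules, and a pseudocount of 5. Each member was named, besides the fixed lists and the 3 nearest entries. The members and lists were chosen with earlier results of these data known.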

Additional observations from a re-analysis of the deposited data

How the results depend on the processing

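The direction of the summed family fold depended on scaling and on which entries were summed. It was 0.965 with TMM, 1.10 with totals without the 5 most abundant entries, 1.02 for the guide arms, 0.640 for the passenger arms (added after the data were seen) and 0.780 without miR-301a-3p. The scaling without the 5 most abundant entries moved the median over all measured entries (log2 fold) by 0.19, from −0.08 to 0.10; a fold relative to that median cannot change with scaling. No measured member changed sides of 1-fold over the 4 scalings. The count of lower members was 1, but 0 under that scaling, 0 when the interval bound had to reach 2-fold and 2 at a fold of 1.5. With totals without the 5 most abundant entries the family share was 0.902% in the control and 0.990% with manganese, and without the erythroid list, added after the data were seen, it was 0.402% with manganese. Both alternatives leave out miR-486-5p, which had 9597 control and 174822 manganese counts, so they are not separate checks. Of 36 values of single members under an alternative, 34 stayed within the counting interval of the reported fold, the exceptions being miR-301a-3p (1.40) and miR-454-3p (0.858) with totals without the 5 most abundant entries. Why these values moved, other than by how each alternative is built, was not tested. The filter of at least 100 counts kept all 5 family hairpins and cannot change a 3p share inside them. No paired analysis was possible because each group held 1 library. Depth limits the rarer members, whose counting intervals are widest, and the lack of replicates limits all of them.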
